A study of Mus musculus with 115 samples.

Results

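Adipocyte progenitor genes are genes whose products mark the stromal cells of fat that divide and give rise to adipocytes. The 8 genes listed were Pdgfra, Pdgfrb, Dlk1, Cd34, Ly6a, Dpp4, Pi16 and Cd24a, and each was read by the brightest probe set that the platform annotation pairs with that symbol alone. Such a probe set was found for 7 of the 8, of 18772 genes and 28204 probe sets in all, with 1 probe set for each of the 7. Ly6a, which encodes the surface protein Sca-1, had none and was not analysed here.

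Mammary fat pads were taken from 115 untreated female mice aged 8 weeks. The mice were a backcross to FVB/N of hybrids between FVB/N and Spret/Ei, so at an autosomal locus a mouse carried FVB/N alleles alone or 1 allele of Mus spretus origin beside one of FVB/N. Total RNA of each mouse was hybridised to an Affymetrix array, and per the labels 44 mice belonged to lymph cluster 1, 61 to cluster 2 and 10 to cluster 3, with 93 arrays on plate 1 and 22 on plate 2. The labels do not say what defines a lymph cluster. All mice shared the cross, sex, age and lack of treatment, and no unbred parental strain was analysed here. Whole tissue was measured, so fewer cells of a type and less RNA per cell cannot be told apart. Whether a Mus spretus allele hybridised less well to a probe was not tested.

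Values are log2 intensities after robust multi-array averaging (RMA), in which 1 unit is a doubling of signal. Array medians lay between 6.16 and 6.45. The tissue label was checked against the mean of 16 white adipocyte genes such as Adipoq and Plin1, which lay between 10.96 and 12.28 in all mice. The mean of 18 luminal epithelium genes such as Krt8 and Epcam ranged from 6.09 to 9.74, that of 13 fibroblast and matrix genes such as Col1a1 and Dcn from 9.43 to 11.05, and that of 8 skeletal muscle genes from 5.06 to 12.84.

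Adipocyte progenitors lie in the stroma between adipocytes and along vessels, and carry the receptors for platelet-derived growth factor (PDGF), of which PDGFRα marks most stromal progenitors of mouse fat and PDGFRβ marks progenitors and mural cells of vessels. In mouse subcutaneous fat, cells with DPP4 and PI16 in the fibrous interstitium give rise to ICAM1+ committed preadipocytes, which express adipogenic genes. CD34, Sca-1 and CD24 are surface proteins by which progenitors are sorted, and DLK1 (preadipocyte factor 1) is a membrane protein of preadipocytes that restrains their differentiation. None is confined to progenitors: CD34 is also found on endothelium and CD24 on mammary epithelium and B cells.

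The 250 bases before the annotated start of Cd34, Dpp4 and Pi16 are shown because these 3 genes rose and fell together between mice, as described below. Each runs 5′ to 3′ on the gene's strand and comes from RefSeq on build GRCm38.p6, at chr1:194938571-194938820 (plus strand) for Cd34, chr2:62412232-62412481 (minus strand) for Dpp4 and chr17:29318632-29318881 (plus strand) for Pi16. Capitals mark matches on either strand to the 5 motifs searched, namely TATAAA for the TATA box, CCAAT for the CCAAT box, GGGCGG for the GC box, TGANTCA for AP-1 and GGAATG for TEAD.
Cd34 promoter: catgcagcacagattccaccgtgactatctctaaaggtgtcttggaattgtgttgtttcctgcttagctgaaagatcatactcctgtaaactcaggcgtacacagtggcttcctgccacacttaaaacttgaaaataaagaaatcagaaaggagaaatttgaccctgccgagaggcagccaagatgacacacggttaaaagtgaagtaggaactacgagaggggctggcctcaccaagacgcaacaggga
Dpp4 promoter: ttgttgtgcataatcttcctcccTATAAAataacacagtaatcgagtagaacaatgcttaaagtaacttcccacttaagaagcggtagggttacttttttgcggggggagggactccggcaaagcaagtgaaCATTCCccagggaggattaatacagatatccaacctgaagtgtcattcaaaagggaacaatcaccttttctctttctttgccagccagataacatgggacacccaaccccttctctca
Pi16 promoter: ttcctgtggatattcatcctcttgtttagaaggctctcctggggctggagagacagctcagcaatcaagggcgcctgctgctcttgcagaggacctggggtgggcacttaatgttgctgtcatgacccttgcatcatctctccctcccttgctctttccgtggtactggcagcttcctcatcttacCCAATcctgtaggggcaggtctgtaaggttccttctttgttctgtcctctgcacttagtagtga

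The Dpp4 window held TATAAA, beginning 227 bases before the start, and GGAATG on the other strand, printed as CATTCC, at 118 bases. The Pi16 window held CCAAT at 64 bases, and the Cd34 window matched none of the 5 motifs. No motif was shared by the 3 windows. The windows of Pdgfra and Dlk1 matched none either, and the other members had no window in the table. Among 32851 promoter windows of this length, 12.4% held the TATA box, 33.8% the CCAAT box, 32.7% the GC box, 6.75% the AP-1 motif and 12.6% the TEAD motif, so each match was of a common kind. A match describes letters alone, not a bound factor.

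The PDGF receptors varied between mice by 3.54-fold for Pdgfra and 3.38-fold for Pdgfrb, from the lowest to the highest. Pdgfra ranged from 8.78 through a median of 9.95 to 10.36 in cluster 1, from 8.91 through 9.84 to 10.60 in cluster 2, and from 9.17 through 9.86 to 10.33 in cluster 3. For Pdgfrb the same values were 8.61, 9.69 and 10.35 in cluster 1, 8.67, 9.70 and 10.37 in cluster 2, and 9.27, 9.63 and 10.10 in cluster 3. The clusters overlapped over nearly their whole range for both receptors, and the lowest mice lay well below the bulk. Over all 115 mice the SD was 0.310 for Pdgfra and 0.337 for Pdgfrb, at the 71.7th and 76.9th percentile of probe set SDs, whose median was 0.238.

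Pi16, which encodes a secreted and membrane-anchored peptidase inhibitor, and Dpp4, a cell surface peptidase, varied more. Pi16 ranged from 7.25 through 8.94 to 9.65 in cluster 1, from 6.80 through 8.94 to 9.84 in cluster 2 and from 7.98 through 8.995 to 9.36 in cluster 3, an 8.28-fold range over all mice. Dpp4 ranged from 8.10 through 9.35 to 10.32, from 7.95 through 9.34 to 10.31 and from 8.41 through 9.27 to 9.99 in the same order, a 5.18-fold range. In Pi16 a few mice of clusters 1 and 2 lay far below the others, and the groups overlapped throughout. The SD was 0.572 for Pi16 and 0.465 for Dpp4, at the 94.8th and 90.2nd percentile.

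The sorting markers Cd34 and Cd24a also varied widely. Cd34 lay between 9.50 and 11.52 with a median of 11.01 in cluster 1, between 9.78 and 11.82 with a median of 10.94 in cluster 2, and between 10.50 and 11.45 with a median of 10.88 in cluster 3. Cd24a, a glycoprotein anchored in the outer membrane, lay between 8.91 and 11.97 with a median of 10.84 in cluster 1, between 9.66 and 11.96 with a median of 10.95 in cluster 2, and between 9.80 and 11.57 with a median of 10.89 in cluster 3. The clusters overlapped in both genes. Cd24a had the widest range of the 7 genes, 8.31-fold, with an SD of 0.583 at the 95.1st percentile. Dlk1 was close to the median of the arrays, with values from 5.66 to 7.11, a median of 6.29 and an SD of 0.252, at the 55.4th percentile. The same mouse, replicate 3 of cluster 1 on plate 2, was lowest in Pdgfra (8.78) and in Cd34 (9.50) and was also low in Pi16 (7.29), while its Cd24a (11.92) was among the highest. In that mouse the fibroblast and matrix mean was 9.48 (median of all mice 10.58) and the skeletal muscle mean 10.38 (median 6.46). How the members follow the skeletal muscle mean was not tested.

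**Figure D1:**
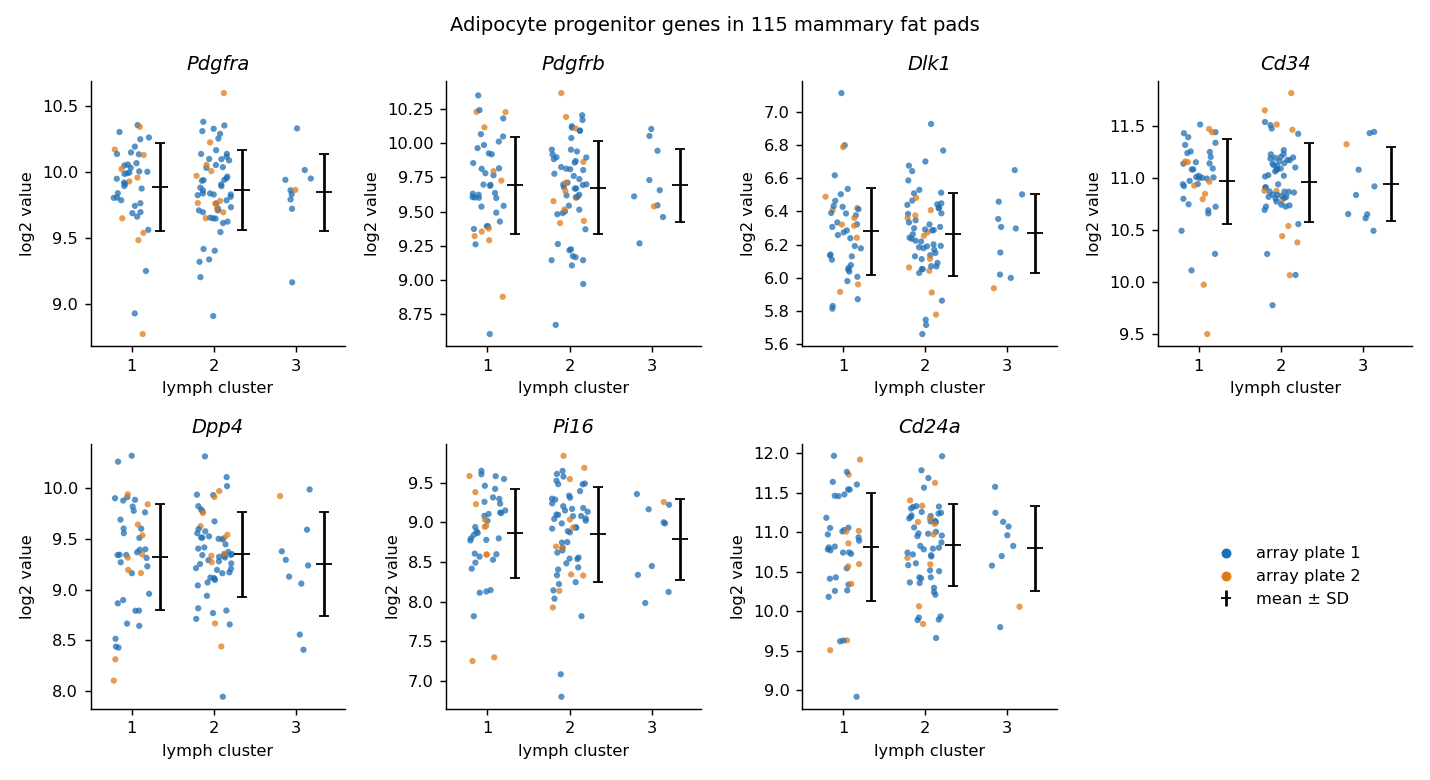
Log2 value of each measured gene (vertical axes, log2 units) in every mouse by lymph cluster (horizontal axes), with points coloured by array plate and black bars giving mean ± SD of 44, 61 and 10 mice. The clusters and the plates overlap in every gene, and isolated low mice are seen in Pdgfra, Cd34 and Pi16.

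Whether the genes differed between the lymph clusters was tested with limma, with array plate in the model. None of the 7 was called in any of the 3 comparisons (background 0% of 28204 probe sets). The differences between clusters 2 and 1 lay between −0.02 for Pdgfra and 0.03 for Dpp4, and those between clusters 3 and 1 between −0.08 for Pi16 and 0.00 for Pdgfrb. Between clusters 3 and 2 they lay between −0.09 and 0.02, and the adjusted p was 1.000 throughout. The widest 95% intervals reached from −0.24 to 0.25 for clusters 2 against 1 and from −0.48 to 0.38 for clusters 3 against 1. Among all probe sets 4, 1 and 1 had an unadjusted p under 0.05, and none of the 7 genes was among them. For clusters 2 against 1 that was 0.0142% of probe sets, a very low share for an unadjusted p, and how the deposited values came to differ so little between clusters was not tested.

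The array plates gave no call among the 7 genes either (background 0.0106%). The differences of plate 2 from plate 1 lay between −0.08 for Pi16 and 0.02 for Dpp4. No member had an unadjusted p under 0.05, against 762 probe sets in the table. That was 2.7% of probe sets, also a low share for an unadjusted p. Cluster and plate together held from 0.0817% (Pdgfrb) to 0.528% (Dlk1) of the variance of a member. Whether the deposited values had been adjusted for cluster or plate was not tested. The lack of calls therefore cannot show that clusters or plates had no effect. Cd34 had an SD of 0.324 over the 93 mice of plate 1 and 0.585 over the 22 of plate 2, the plate that held both its lowest and its highest mouse.

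Cd34, Pi16 and Dpp4 varied together. Over 115 mice Pearson's r was 0.797 between Cd34 and Pi16 (Spearman's rho 0.722), 0.710 between Cd34 and Dpp4 (rho 0.669) and 0.710 between Dpp4 and Pi16 (rho 0.686). Each had an adjusted permutation p of 2.62e-05 for r and 3.5e-05 for rho (two-sided, 100000 permutations, Benjamini-Hochberg over 21 pairs), which rests on the smallest p the permutations can give, 1e-05. Without the 2 mice farthest from the median of the first gene r was 0.756, 0.667 and 0.657.

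Within groups these 3 relations held in the larger sets and were lower in part of the smallest. For Cd34 with Pi16, r was 0.891 in cluster 1, 0.794 in cluster 2 and 0.297 in the 10 mice of cluster 3, and 0.768 and 0.878 on plates 1 and 2. For Cd34 with Dpp4 the values were 0.827, 0.683 and 0.266 by cluster and 0.647 and 0.891 by plate. For Dpp4 with Pi16 they were 0.812, 0.639 and 0.730 by cluster and 0.669 and 0.840 by plate. The difference of r between clusters was not tested.

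The 2 PDGF receptors were also correlated, with r = 0.589 (rho 0.495, adjusted permutation p 2.62e-05 for r and 3.5e-05 for rho), and r was 0.516 without the 2 mice farthest in Pdgfra. Pdgfra was correlated with Pi16 (r = 0.649, rho 0.589) and with Cd34 (r = 0.646, rho 0.592), both at the same adjusted permutation p, and less closely with Dpp4 (r = 0.367, rho 0.319, adjusted p 0.000187 for r and 0.00142 for rho by permutation). Pdgfrb was correlated with Cd34 (r = 0.473, rho 0.375) and Pi16 (r = 0.431, rho 0.353), whereas with Dpp4 r was 0.085 (rho 0.038, adjusted permutation p 0.483 and 0.802). In all, 11 of the 21 pairs passed the test for r, 9 with a positive sign. Following a member was common in this table. In limma fits on each member, from 6.27% (Dlk1) to 32.2% (Cd24a) of all probe sets were called in either direction, with 26.4% for Pdgfra and 22.1% for Pdgfrb.

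Cd24a and Dlk1 had few correlations with the other 5 genes. Cd24a was negatively correlated with Pdgfra (r = −0.256, rho −0.266, adjusted permutation p 0.0126 and 0.00766) and with Dlk1 (r = −0.221, rho −0.235, adjusted permutation p 0.034 and 0.022). The Cd24a and Dlk1 relation was −0.465 in cluster 2, −0.089 in cluster 1 and 0.538 in the 10 mice of cluster 3, so it did not hold within each cluster. Without the 2 mice farthest in Pdgfra, r of Pdgfra with Cd24a was −0.179. With the other 5 genes, Dlk1 had r between −0.027 and 0.139, and no pair passed.

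The part of these correlations shared with fibroblast and matrix RNA was measured by removing the mean of those 13 genes, together with cluster and plate, from each gene. This was chosen after seeing the data. The 3 relations of Cd34, Pi16 and Dpp4 kept r of 0.655 (Cd34 with Pi16), 0.705 (Cd34 with Dpp4) and 0.675 (Dpp4 with Pi16), each with an adjusted permutation p of 7e-05. That of the PDGF receptors fell to 0.153 (adjusted permutation p 0.18), and Pdgfrb with Cd34 to −0.011 (0.957). With the means of 8 cell type lists removed, the 3 relations were between 0.694 and 0.755 and the receptors' r was 0.173 (adjusted permutation p 0.122). Pdgfrb and Dpp4, which had not been correlated, then had r of −0.222 and −0.225 in the same order (adjusted permutation p 0.0468 and 0.0408).

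**Figure D2:**
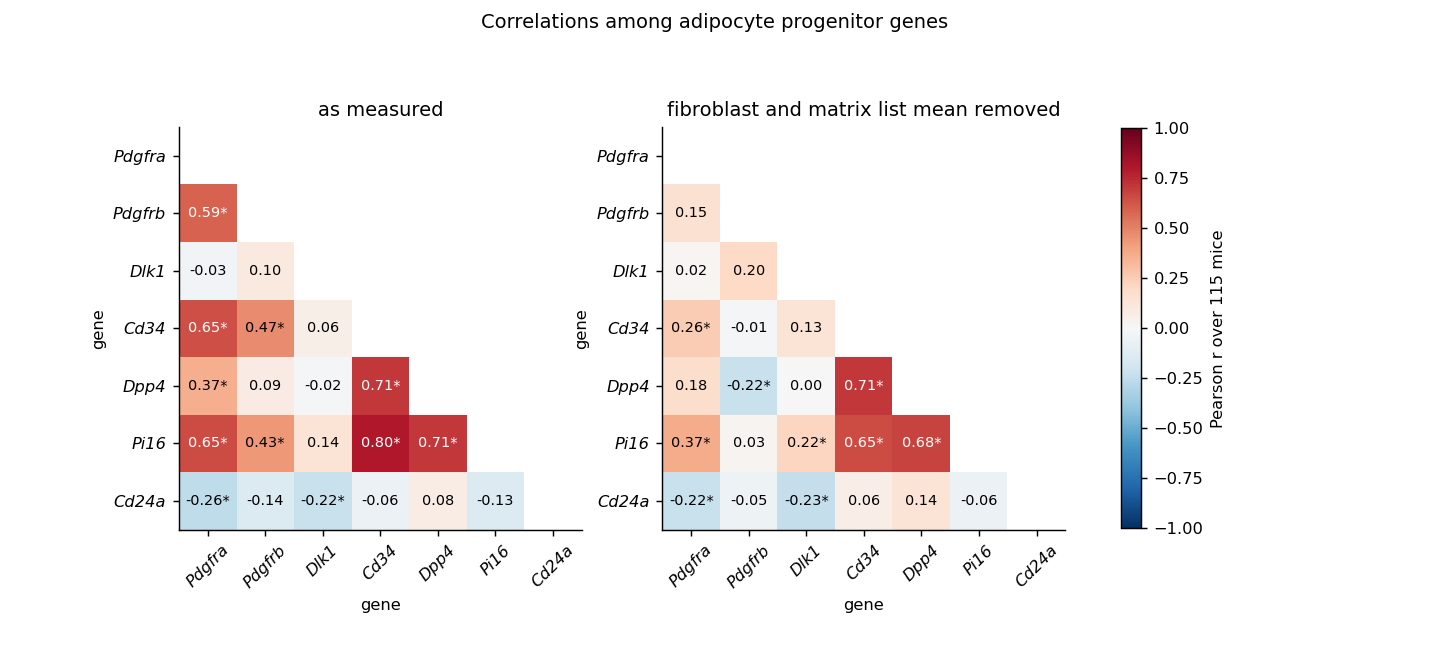
Pearson r between each pair of genes over 115 mice (colour and printed value), as measured on the left and after removing the fibroblast and matrix list mean, cluster and plate on the right, with a star where the adjusted permutation p is under 0.05. Cd34, Dpp4 and Pi16 stay between 0.65 and 0.71 on the right, while Pdgfra with Pdgfrb goes from 0.59 to 0.15.

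**Figure D3:**
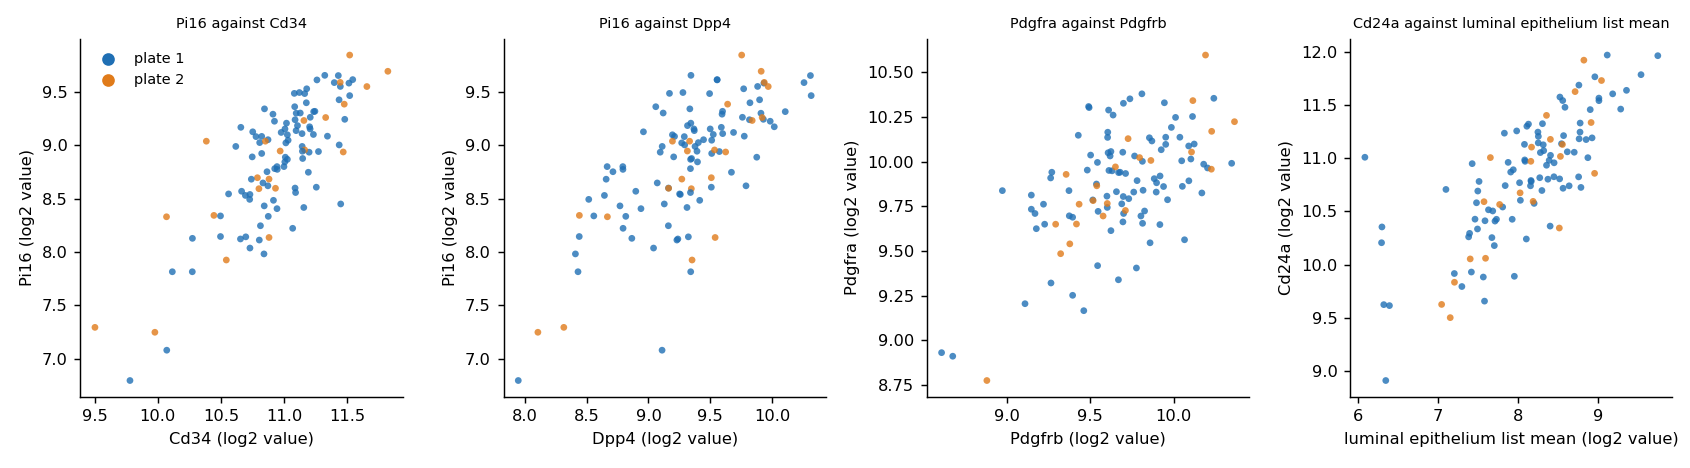
Log2 values of gene pairs in each of the 115 mice, coloured by array plate: Pi16 against Cd34, Pi16 against Dpp4, Pdgfra against Pdgfrb, and Cd24a against the mean of 18 luminal epithelium genes. Pi16 rises along both axes with Cd34 and Dpp4, and the lowest Pi16 values come with low Cd34.

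Genes of the DPP4+ interstitial progenitor, a list of 12 that includes Dpp4 and Pi16, followed Cd34 and Pi16 closely. In a fit of all probe sets on the Cd34 value of each mouse, all 10 of the other genes rose (background 8.82% rising), with a median slope of 0.73 log2 units per unit of Cd34 against −0.01 over all probe sets. The 4 with the smallest p were Efhd1, a mitochondrial calcium-binding protein (0.92 ± 0.070 SE, adjusted p 2.46e-21), Anxa3, an annexin (0.87 ± 0.075, 3.23e-18), the secreted guidance factor Sema3c (0.94 ± 0.086, 7.83e-17) and the ligand Wnt2 (0.85 ± 0.090, 1.58e-13). On Pi16 all 10 rose as well (background 8.82% in either direction, median slope 0.46), led by Efhd1 and Sema3c. On Dpp4 9 of 10 rose (background 9.98% rising, median slope 0.48), including Anxa3 (0.70 ± 0.064, adjusted p 6.24e-16) and the cytokine Il33 (0.73 ± 0.100, 1.24e-08), and the matrix protein gene Dpt had a slope of 0.14 ± 0.064 that missed the threshold (0.121).

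Pdgfra went with both the interstitial list, of which 9 of 10 rose (background 14.7% rising, median slope 0.53), and the list of committed preadipocyte genes, of which 9 of 11 rose (median slope 0.39). The latter included Ebf2, a transcription factor of the adipocyte lineage (0.70 ± 0.089, adjusted p 2.41e-10), the proteoglycan Gpc3 (1.04 ± 0.130, 1.04e-10), Ebf1 (0.39 ± 0.073, 9.46e-06) and the basement membrane collagen Col4a1 (0.50 ± 0.098, 2.51e-05). On Pdgfrb 6 of 10 interstitial genes and 9 of 11 committed genes rose (background 14.2% rising), the latter led by Col4a1 (0.68 ± 0.077, adjusted p 6.69e-12) and Col15a1 (0.90 ± 0.118, 1.12e-09). Of the 11, 3 rose with Cd34 (Gpc3, Ebf2 and Col4a1), 4 with Pi16 (the same 3 and Lpl), and 1 with Dpp4 (Gpc3), with which 2 fell (background 7.13% falling), Cebpb (−0.32 ± 0.077, adjusted p 0.00125) and Zfp423 (−0.16 ± 0.059, 0.0472), both transcription regulators of adipogenesis. Whether these counts differ between Pdgfra and Dpp4 was not tested.

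All 5 of the other PDGF genes measured rose with Pdgfrb, including Pdgfb, its main ligand in vessels (0.47 ± 0.076, adjusted p 6.25e-07), and the receptor-like gene Pdgfrl (0.67 ± 0.113, 1.75e-06). With Pdgfra, Pdgfc (0.58 ± 0.089, 1.03e-07), Pdgfd (0.73 ± 0.103, 8.37e-09) and Pdgfrl (0.88 ± 0.114, 4.84e-10) rose, while the slopes of Pdgfa (0.17 ± 0.073, adjusted p 0.070) and Pdgfb (0.11 ± 0.094, 0.387) did not pass. The same 3 rose with Cd34, Dpp4 and Pi16. The backgrounds were those given above, 14.2% rising with Pdgfrb, 14.7% with Pdgfra, 8.82% with Cd34, 9.98% with Dpp4 and, in either direction, 8.82% with Pi16. CD142+ stromal regulators, cells of mouse fat that restrain adipogenesis in their neighbours, were represented by 9 genes, of which 8 rose with Pdgfra, 6 with Cd34, 6 with Pi16, 4 with Pdgfrb and 1 with Dpp4 (Gdf10), the last being near its background. The growth factor Igf1 was among those that rose with Pdgfra (0.65 ± 0.074, adjusted p 2.86e-12).

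Most committed preadipocyte genes fell as Cd24a rose. Of the 11 genes of the list other than Dlk1, 8 fell with it and 1, Icam1, rose (background 32.2% in either direction), with a median slope of −0.27. The falls included Aoc3, an amine oxidase of adipocytes and vascular smooth muscle (−0.47 ± 0.052, adjusted p 9.79e-13), Pparg, the central regulator of adipogenesis (−0.35 ± 0.040, 1.30e-12), Zfp423 (−0.33 ± 0.037, 1.49e-12) and lipoprotein lipase, Lpl (−0.27 ± 0.032, 2.01e-11). Among the interstitial genes 2 rose with Cd24a (Bmp7 and Cd55) and 2 fell (Dpt and Sema3c). Some of these genes, Pparg and Lpl, are also in the white adipocyte list. Cd24a itself had r of 0.774 with the luminal epithelium mean and −0.669 with the white adipocyte mean. Whether the falls go beyond the balance of epithelium and fat in the tissue was not tested.

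Dlk1 was followed by few genes of any list (background 6.27%). Its values lay near the array medians, and whether its probe set read more than background signal was not tested. None of the interstitial, PDGF or CD142+ genes was called, and the committed list gave 1 call, Cebpb. Of 10 other imprinted growth genes measured, Igf2 alone rose with it (0.38 ± 0.109, adjusted p 0.0254). Meg3 and Rian, which lie in the same imprinted domain as Dlk1, had slopes of −0.11 ± 0.144 (adjusted p 0.652) and −0.21 ± 0.114 (0.245). Surface proteins Cd44 (−0.70 ± 0.167, adjusted p 0.00871) and Cd9 (−0.53 ± 0.153, 0.0269) fell with Dlk1, and of 6 Ly6 family genes measured Ly6h (0.22 ± 0.062, 0.0256) and Gpihbp1 (0.49 ± 0.160, 0.0466) rose.

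The genes most alike to each member were ranked by Pearson r over the 115 mice on values corrected for cluster and plate, as a description. For Pdgfra they were Mmp2, a gelatinase (r = 0.820), Adamtsl1 (0.812), Dnm1 (0.794), the collagen receptor Ddr2 (0.791) and the laminin chain Lama2 (0.784), and the lowest r was that of Rbm38 (−0.602). For Pdgfrb they were Dchs1 (0.759), Gask1b (0.737), Kdelr3 (0.734), the semaphorin receptor Plxnd1 (0.732) and Afap1l2 (0.730), and the lowest was Polr2k (−0.611). The receptors shared none of these 5.

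Cd34 was most like the adhesion protein gene Opcml (0.875), Flrt2 (0.851), Emilin2 (0.851), Timp2, an inhibitor of metalloproteinases (0.835), and Fstl1 (0.826). Opcml was also first for Dpp4 (0.801), followed by the collagen Col14a1 (0.778), Rbpj, the DNA-binding partner of Notch (0.775), Scara3 (0.773) and Sfrp4, a secreted Wnt antagonist (0.761). Pi16 had Fndc1 (0.872), Timp2 (0.871), Emilin2 (0.860), Scara3 (0.840) and Sfrp4 (0.836), so it shared Timp2 and Emilin2 with Cd34 and Scara3 and Sfrp4 with Dpp4. For Cd24a the list was Tmc4 (0.776), Myb (0.775), the glycosyltransferase Galnt3 (0.775), Gata3, a transcription factor of luminal cells (0.767), and Spint2 (0.763), and the lowest were Rtf2 (−0.711) and Tacc1 (−0.696). For Dlk1 r did not exceed 0.490 (Hpcal4), and the others were Ldlrad1, Nt5c1a, Xkr7 and St6galnac6, with Rpl39 lowest (−0.439).

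How the genes followed the marker RNA of cell types in the fat pad was tested with the means of 8 cell type lists, none of which contained a member. Of the 7 genes, 5 rose with the fibroblast and matrix mean (background 23.7%). The slopes were 1.17 ± 0.144 SE for Pi16 (adjusted p 5.98e-11), 0.91 ± 0.088 for Cd34 (1.15e-15), 0.78 ± 0.066 for Pdgfra (5.14e-19), 0.78 ± 0.078 for Pdgfrb (7.39e-15) and 0.54 ± 0.138 for Dpp4 (0.00165), in log2 units per unit of the mean. Dlk1 (−0.05 ± 0.080, adjusted p 0.697) and Cd24a (−0.29 ± 0.183, 0.252) did not pass.

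Cd24a followed the mean of the luminal epithelium genes, with a slope of 0.64 ± 0.049 (adjusted p 7.45e-22), and was 1 of 2 genes called for it (background 26.6%), Dlk1 falling by 0.10 ± 0.032 (0.0148). It also rose with the basal epithelium mean (0.41 ± 0.067, adjusted p 8.13e-07), 1 of 3 calls (background 16.4%) beside Cd34 (0.16 ± 0.049, 0.0107) and Dlk1 (−0.09 ± 0.032, 0.0412). Cd24a fell steeply with the white adipocyte mean (−1.37 ± 0.142, adjusted p 6.46e-15). Of the 7 genes 4 were called for that mean (background 41.2%), Dpp4 falling (−0.40 ± 0.148, 0.0222) and Pdgfra (0.33 ± 0.097, 0.00298) and Pdgfrb (0.34 ± 0.106, 0.00539) rising. With quantile normalization repeated both receptors lost that call, with slopes of 0.22 for Pdgfra (adjusted p 0.0779) and 0.22 for Pdgfrb (0.127).

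Pdgfrb rose with both vessel lists, as did Pdgfra, Cd34 and Pi16. The slope of Pdgfrb was 0.68 ± 0.089 on the blood endothelium mean (adjusted p 3.97e-10) and 0.88 ± 0.130 on the mural cell mean (2.05e-07), which marks the pericytes and smooth muscle of vessels. In the same order the slopes were 0.30 and 0.49 for Pdgfra, 0.33 and 0.56 for Cd34, and 0.51 and 0.82 for Pi16. Cd24a fell with the endothelium mean (−0.85 ± 0.171). Of the 7 genes 5 were called for endothelium (background 26.9%) and 4 for mural cells (background 26.5%). On plate 1 alone Pdgfra, Cd34 and Pi16 lost the endothelium call, and Pi16 lost the mural call. Pdgfra alone was called for the B cell (−0.17 ± 0.043, adjusted p 0.00103, background 29.3%) and T cell means (−0.19 ± 0.047, 0.000829, background 32.7%), and fell with both.

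With all 8 means in 1 model, an analysis chosen after seeing the data, the fibroblast and matrix slope was called for 6 of the 7 genes (background 20.9%): the same 5, and Cd24a, which fell (−0.33 ± 0.109, adjusted p 0.0187). Pdgfrb kept its slope on blood endothelium (0.60 ± 0.108, adjusted p 1.30e-05, background 11.8%), and its slope on mural cells was 0.14 ± 0.136 (0.60). Cd24a kept its slope on luminal epithelium (0.52 ± 0.059, adjusted p 5.27e-12, background 11.2%), and its slope on white adipocytes was −0.41 ± 0.177 (0.112). Cd34, which had shown no slope on white adipocytes alone (0.01 ± 0.126), fell with them here (−0.64 ± 0.146, adjusted p 0.000772, background 13.4%). It was also called for luminal epithelium (−0.15 ± 0.049, adjusted p 0.0358), while Dlk1 lost its call there (−0.08 ± 0.047, 0.310). How far the 8 means vary together, and so how well the model separates them, was not tested. None of the 7 genes was called for basal epithelium (background 2.39%), mural cells (10.3%), B cells (1.29%) or T cells (2.23%). The 8 means with cluster and plate held 75.8% of the variance of Cd24a, 68.8% of Pdgfrb, 62.3% of Cd34, 60% of Pdgfra, 39.6% of Pi16, 31.8% of Dpp4 and 16.5% of Dlk1, against a median of 20.4% over all probe sets.

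**Figure D4:**
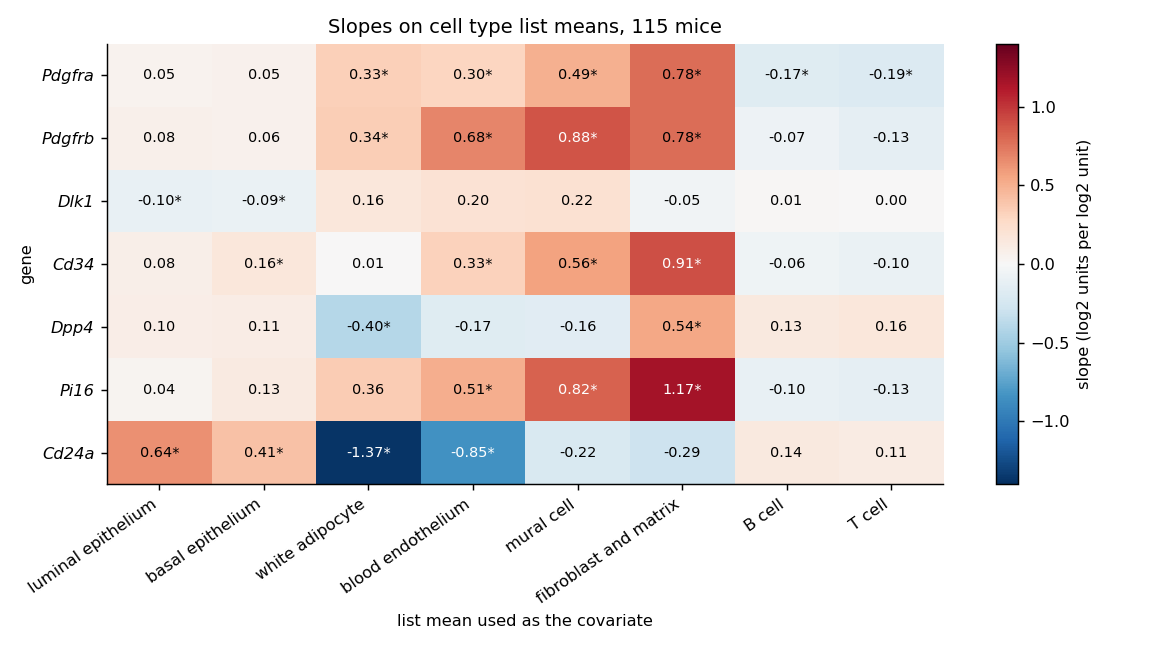
Slope of each gene (rows) on the mean of each cell type list (columns), in log2 units per log2 unit, from separate limma fits over 115 mice, with a star where the adjusted p is under 0.05. The fibroblast and matrix column is positive for 5 genes, and Cd24a has the positive luminal and the negative white adipocyte slope.

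The series names Hipk2, a nuclear serine/threonine kinase, as a regulator of white fat development, so each gene was tested for its slope on Hipk2 across mice, with cluster and plate in the model. Of the 7 genes, 4 were called, against a background of 35.8% of probe sets, so a call was common in this table. Pdgfrb rose by 0.32 ± 0.087 SE log2 units per unit of Hipk2 (adjusted p 0.00172) and Pdgfra by 0.28 ± 0.080 (0.00351). Cd24a had a slope of −0.89 ± 0.134 (adjusted p 2.05e-08), a factor of 0.540 per doubling of Hipk2, and Dpp4 one of −0.31 ± 0.122 (0.0393). Pi16 had a slope of 0.29 ± 0.152 with an interval from −0.01 to 0.59 (adjusted p 0.130), and those of Dlk1 (0.05 ± 0.068, 0.650) and Cd34 (0.03 ± 0.104, 0.880) did not pass.

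Several cell type lists moved with Hipk2 as well, in a fit that called 35.8% of all probe sets in either direction. All 16 white adipocyte genes measured, 11 of 12 blood endothelium genes and 8 of 13 fibroblast and matrix genes rose with it, while 16 of 18 luminal epithelium genes, 6 of 9 B cell genes and 9 of 9 T cell genes fell. All 7 proliferation genes measured fell too. Nearer that share were the mural cell list, with 4 rises of 10, and the basal epithelium list, with 2 falls of 7. Of 8 granulocyte genes 2 rose and 1 fell, and of 8 skeletal muscle genes 0 were called. With the white adipocyte mean as a covariate none of the 7 genes was called (background 8.30%), and the slope of Cd24a was 0.25 ± 0.220 (adjusted p 0.576). The slopes of the other genes called before were 0.28 ± 0.164 for Pdgfrb (0.326), 0.15 ± 0.151 for Pdgfra (0.627) and −0.10 ± 0.231 for Dpp4 (0.850). That mean had r of 0.848 with Hipk2, so this fit separates the 2 poorly and its standard errors were larger. A lost call here does not show a slope of 0. With the blood endothelium mean as a covariate Cd24a alone was called (background 21.6%; −0.74 ± 0.176, adjusted p 0.000800), and the slope of Dpp4 was −0.37 ± 0.162 (0.0870). With the B and T cell means Pdgfrb and Cd24a were called (background 29.8%), and Dpp4 had a slope of −0.24 ± 0.132 (adjusted p 0.168). With the luminal epithelium mean Pdgfra, Pdgfrb and Cd24a were called (background 33.5%), Cd24a with a slope of −0.51 ± 0.095 (adjusted p 4.02e-06), while Dpp4 lost its call (−0.27 ± 0.130, 0.0978).

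With the fibroblast and matrix mean as a covariate 3 genes were called (background 34.7%), all with negative slopes: Cd24a (−0.88 ± 0.139, adjusted p 8.22e-08), Dpp4 (−0.46 ± 0.115, 0.000643) and Cd34 (−0.19 ± 0.076, 0.0426). Both PDGF receptors then lost their call, with slopes of 0.11 ± 0.058 for Pdgfra (adjusted p 0.146) and 0.15 ± 0.068 for Pdgfrb (0.0690).

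By plate, the slopes of Pdgfra were 0.29 on plate 1 and 0.27 on plate 2, those of Pdgfrb 0.38 and 0.24, those of Dpp4 −0.45 and −0.03, and those of Cd24a −0.91 and −0.78. On the 22 arrays of plate 2 alone none was called (background 3.26%), and Cd24a had an adjusted p of 0.122. Pdgfra lost its call when quantile normalization was repeated (adjusted p 0.100) and when arrays were weighted (0.0646). By cluster, Cd24a was called in cluster 1 (background 17.3%; −1.08 ± 0.25, adjusted p 0.00158) and in cluster 2 (background 31.3%; −0.75 ± 0.158, 0.000135), and Dpp4 was −0.06 ± 0.229 (0.913) and −0.40 ± 0.139 (0.0194). The slope in cluster 2 did not pass a test of its difference from that in cluster 1 for any of the 7 genes (background 4.62%), with a smallest adjusted p of 0.495 for Cd34. These differences had wide intervals, from −0.97 to 0.31 for Pi16 and from −0.86 to 0.16 for Dpp4.

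Dpp4 and Pi16, though correlated with each other, had different slopes on Hipk2. The difference between their slopes was −0.60 ± 0.095 (adjusted permutation p 3.5e-05 two-sided, over 21 pairs), a test chosen after seeing the data. It was −0.67 ± 0.115 on plate 1 and −0.48 ± 0.174 on plate 2 (adjusted permutation p 3e-05 and 0.0458). Cd34 lay between them, with a slope above that of Dpp4 by 0.33 ± 0.084 (adjusted permutation p 0.000257) and a difference of −0.27 ± 0.093 from Pi16 (0.00796). On plate 2 alone the first of these was 0.02 ± 0.142 (0.917), and on plate 1 alone the second was −0.19 ± 0.116 (0.138). Pdgfra and Pdgfrb differed by −0.04 ± 0.081 (adjusted permutation p 0.695). In all, 16 of 21 pairs differed in slope, 13 on plate 1 alone, 5 on plate 2 alone and 14 without the mouse lowest in Pdgfra. How often other pairs of genes differ in slope was not tested, so these counts have no background. On plate 1 the differences of Pdgfra from Dlk1 (0.23, adjusted permutation p 0.106) and of Dpp4 from Cd24a (0.47, 0.0516) also lost their call. Without that mouse, the differences of Dlk1 from Pdgfra (0.16, adjusted permutation p 0.171) and from Pdgfrb (0.22, 0.0521) lost their call.

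**Figure D5:**
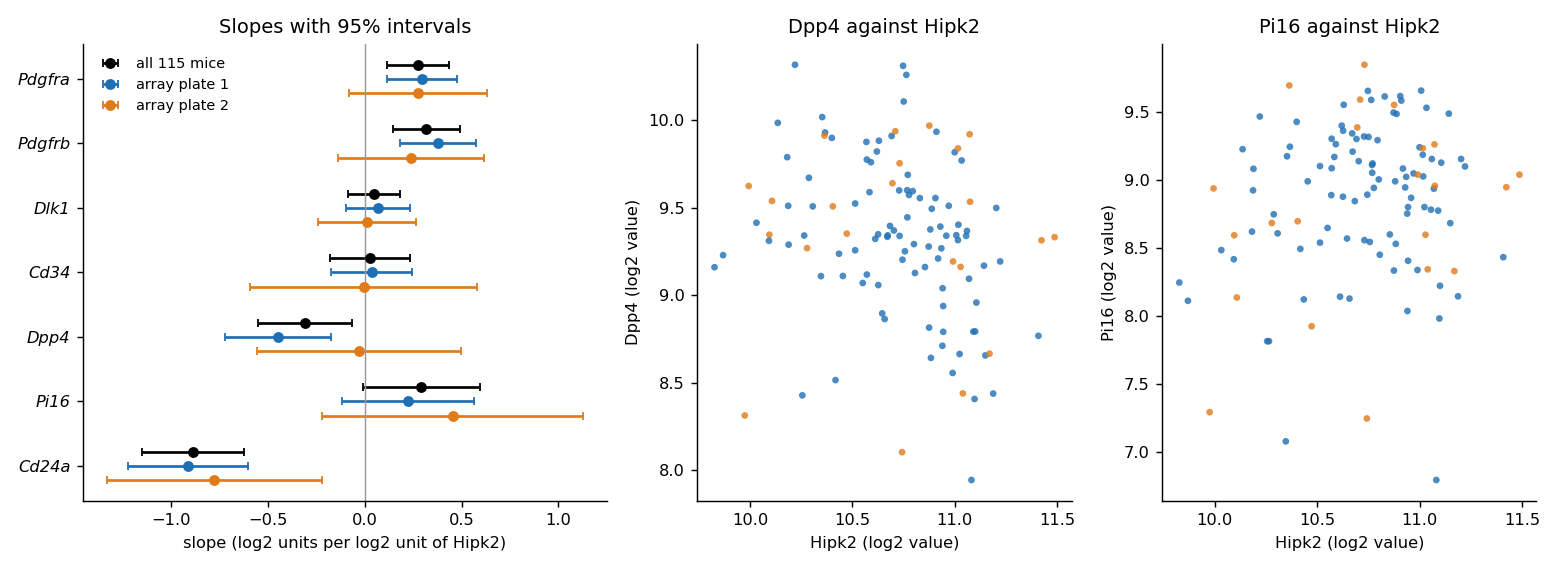
Left, slope of each gene on Hipk2 in log2 units per log2 unit with 95% intervals, for all 115 mice and for each array plate. Middle and right, log2 values of Dpp4 and Pi16 against Hipk2 in each mouse, coloured by plate: the slope is −0.31 for Dpp4 and 0.29 for Pi16, and Cd24a has the lowest slope, −0.89.

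The 7 related lists differed in their counts on Hipk2, where the median slope of all probe sets was −0.01 and 35.8% of them were called in either direction. Of 12 committed preadipocyte genes 8 rose and 1, Icam1, fell (−0.46 ± 0.098, adjusted p 6.52e-05), with a median slope of 0.61, and the rises included Aoc3 (1.05 ± 0.059, 1.00e-30) and Ebf1 (0.64 ± 0.041, 4.49e-27). Of 12 interstitial genes 2 rose (Dpt, 0.57 ± 0.069, and Sema3c, 0.41 ± 0.130) and 2 fell (Dpp4 and Bmp7, −0.28 ± 0.106), with a median of 0.00, a count near that share. The CD142+ list had 7 rises of 9 (median 0.30) and the imprinted list 7 of 11 measured, led by Plagl1 (1.29 ± 0.105, adjusted p 4.80e-20) and Mest (2.28 ± 0.344, 1.96e-08). The PDGF list had 4 rises of 7 (median 0.28), among them the members Pdgfra and Pdgfrb, already described above. Its other rises were Pdgfb (0.39 ± 0.076, adjusted p 9.74e-06) and Pdgfd (0.31 ± 0.106, 0.0128), while Pdgfa, Pdgfc and Pdgfrl did not pass. Of 10 surface proteins used in sorting, 3 rose (Pdgfra, Pdgfrb and Eng) and 4 fell (Thy1, Nt5e, Cd9 and Cd24a), and of 6 Ly6 genes Gpihbp1 rose and Ly6i fell.

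Genes near a member on the chromosome were read in the fit on that member, as up to 50 of the nearest measured genes on each side. That gave 100 neighbours for each member except Cd34, which had 54. For Dpp4, 28% of the neighbours were called, against 17.1% of all probe sets, and the one with the smallest p was Fap (0.47 ± 0.072, adjusted p 3.72e-07), with 1 measured gene between. Fap encodes a membrane protease of the same family and is also in the fibroblast and matrix list. For Pdgfrb the share was 38% against 22.1%, led by Arsi (0.64 ± 0.080, adjusted p 2.25e-10) with 3 measured genes between. The share was 22% for Pdgfra against 26.4%, 3% for Dlk1 against 6.27%, 13% for Cd34 against 13.1%, 2% for Pi16 against 8.82% and 31% for Cd24a against 32.2%, each near or below that of all probe sets. The labels give no genotype, so whether an allele at a member's locus moved with its level was not tested.

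A mixture of 2 levels was weighed against 1 by the Bayesian information criterion (BIC), as a description. The criterion was higher for 2 levels in Pdgfra (by 7.18, with 7 mice at the lower level), Cd34 (by 6.65, 8 mice) and Pi16 (by 4.70, 4 mice), and higher for 1 level in Pdgfrb, Dlk1, Dpp4 and Cd24a. Low mice were shared in part. Pdgfra, Cd34 and Pi16 were 8.78, 9.50 and 7.29 in replicate 3 of cluster 1, and 8.91, 10.07 and 7.08 in replicate 57 of cluster 2. They were 9.34, 9.78 and 6.80 in replicate 48 of cluster 2, and 9.93, 9.98 and 7.25 in replicate 13 of cluster 1. Whether a level follows an allele was not tested.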

How the data were processed

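Mammary fat pad RNA of 115 mice was measured on Affymetrix arrays. The deposited values are log2 intensities made with RMA in oligo, per the submitters' processing notes; versions: not given in the sources used here. Of 28204 probe sets, 21141 had 1 symbol, 1881 several and 5182 none. Symbols were updated through RefSeq (GRCm38.p6, 21111 matched), and the array's build was not stated. Tests used limma 3.58.1 in R 4.3.3 and p-values adjusted by Benjamini-Hochberg over the whole table; genes with an adjusted p under 0.05 were called. Models held lymph cluster and plate, with Hipk2, a member or a list mean added. Correlations used 100000 permutations over 21 pairs, not 28, since Ly6a was not measured. Mixtures used mclust 6.1.1. Figures used matplotlib 3.10.9. Members and lists were chosen with earlier results of these data known. Named genes were the members, Hipk2, the 5 most alike and 2 least alike genes per member, and up to 4 per list by smallest p; a few others of the lists were named after their values were seen. On simulated data with 200 changed among 28204 independent probe sets, the Hipk2 model recovered 94% of slopes of 0.5 and 59% of 0.25. The test of Hipk2 slopes between clusters 2 and 1 recovered 39% and 1% of such differences. The measured Hipk2 fit called 35.8% of probe sets, so these shares need not hold for it. Alternatives changed normalization, moderation, covariates and the mice used. The number of arrays limits precision. Promoters came from RefSeq.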

Additional observations from a re-analysis of the deposited data

Results flagged for a closer look

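In lymph cluster 3, with 10 mice, the lowest Pdgfra value, 9.17, lay farther from its nearest neighbour, relative to the range of the group, than Dixon's 95% limit. Of 8 groups tested (the 7 genes and Hipk2 in that cluster) this was the 1 flag, and chance flags about 1 in 20 groups.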

How the results depend on the processing

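Of the 7 genes, 4 were called on Hipk2 in the first instance, 0 on plate 2 alone, 2 in lymph cluster 1 alone, 0 with the white adipocyte mean as a covariate, 1 with that of blood endothelium and 2 with those of B and T cells. For the cell type means on plate 1 alone, 3 genes were called for blood endothelium (8101 of 28192 probe sets) and 3 for T cells (8350 of 28195). When quantile normalization was repeated, 3 were called for blood endothelium (7386 of 28192 probe sets) and 2 for mural cells (6797 of 28194). Without the mouse lowest in Pdgfra 2 were called for T cells, where 32.7% of probe sets were called over all mice. A call was thus common among all probe sets for these means. With all 8 means in 1 model the calls were 0 for basal epithelium, mural cells, B cells and T cells and 1 for white adipocytes and for blood endothelium. The Hipk2 slope of Cd34, not called, turned to −0.026 with repeated quantile normalization, −0.073 with array weights, −0.0051 on plate 2, −0.10 in cluster 2, −0.018 on ranks, −0.057 without the mouse lowest in Pdgfra (also the mouse of largest Cook's distance), and −0.19, −0.26 and −0.042 with the fibroblast, blood endothelium and lymphocyte means as covariates. That of Dlk1, not called, turned to −0.021 in cluster 1 and to −0.021, −0.23 and −0.11 with the luminal, white adipocyte and blood endothelium means. With the white adipocyte mean Cd24a turned to 0.25, and with the blood endothelium mean Pdgfrb turned to −0.095. In the joint model the white adipocyte slopes turned to −0.018 for Pdgfra and −0.23 for Pdgfrb. Among the correlations, Pdgfrb with Dpp4 turned to −0.060 on plate 1, and in cluster 1 Dlk1 turned to −0.146 with Cd34 and −0.031 with Pi16. In cluster 2 the turned values were 0.164 (Pdgfra with Dlk1), 0.127 (Dlk1 with Dpp4) and 0.010 (Cd34 with Cd24a). With the fibroblast mean removed they were 0.021 (Pdgfra with Dlk1), −0.011 (Pdgfrb with Cd34), −0.222 (Pdgfrb with Dpp4), 0.0047 (Dlk1 with Dpp4) and 0.064 (Cd34 with Cd24a). With 8 means removed they were −0.178 (Pdgfrb with Cd34), −0.225 (Pdgfrb with Dpp4), −0.051 (Pdgfrb with Pi16), 0.101 (Dlk1 with Dpp4), 0.020 (Dlk1 with Cd24a) and −0.141 (Dpp4 with Cd24a), and without the mouse lowest in Pdgfra Cd34 with Cd24a was 0.0073. The slope difference of Pdgfra from Pdgfrb turned to 0.035 on plate 2, that of Pdgfra from Pi16 to 0.072 on plate 1 and 0.0070 without that mouse, and that of Pdgfrb from Pi16 to −0.21 on plate 2. The cause of these changes was not tested. The lowest-mouse, joint-model, list-removal and slope-difference settings were chosen after seeing the data. No paired analysis was possible because each mouse gave 1 array. The next brightest probe set was not run, since each gene had 1.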
